A study of Rattus norvegicus with 4 samples.

Results

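Rtp3, the gene for receptor (chemosensory) transporter protein 3, is described here in the rat kidney line NRK-52E. It is 1 of 17768 genes in the deposited table and was taken as the single row with that gene name. It was chosen because its values differ between the 2 groups of libraries, so its levels are given as a description with no test. RNA was sequenced from 4 libraries of this established cell line, which came from the kidney of a normal rat and is labelled as proximal tubular epithelium. The groups are lv_nc (2 libraries) and lv_Mettl3 (2 libraries), and all 4 carry the treatment label untreated. Per the labels' protocols, a murine Mettl3 cDNA in the vector pLVX-IRES-Puro was delivered by lentivirus and stable cells were selected and kept under puromycin. Mettl3 is the methyltransferase that places N6-methyladenosine on messenger RNA. The meaning of nc is left unexplained in the labels, as are whether the stable line is 1 clone and whether replicates are separate cultures, so the spread between replicates may be technical.

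Receptor transporter proteins are small membrane-anchored proteins with a zinc finger domain that help G protein-coupled receptors leave the endoplasmic reticulum and reach the cell surface. Rtp1 and Rtp2 do so for odorant receptors, Rtp3 and Rtp4 for bitter taste receptors of the Tas2r family, and Rtp4 is also a gene induced by interferon. Rtp3, also known as Tmem7, is best known as a gene expressed in liver. The Reep genes encode receptor expression-enhancing proteins, endoplasmic reticulum membrane proteins found in the same screens as the receptor transporters.

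The libraries held 15068898 to 16622255 gene reads recovered from the deposited values. Mettl3 itself, the gene named in the titles, had normalized counts of 719 and 767 in lv_nc against 757 and 700 in lv_Mettl3, so the groups overlapped and the label is not borne out by reads assigned to the rat gene. Whether reads of the murine cDNA could be counted there was not analysed here, and the directions below are those of the libraries as labelled. Of 25 kidney epithelial markers 16 were in the table, and 10 of these had a mean under 10. Krt8, a keratin of simple epithelia, was at 28296 to 33065 in the 4 libraries, and the brush border peptidase gene Ggt1 at 2412 and 2530 in lv_nc against 3294 and 3757 in lv_Mettl3. Of the 13 kidney markers that limma tested it called 0 (0.0183% over all genes), and edgeR called 0 (0.0381%). DESeq2 called 1 higher of the 6 it tested (1.45% over all genes), Ggt1, with an adjusted p of 0.0345. Cdh1, Pax8, Lrp2, Aqp1 and Cdh16, all of this marker list, each stayed under 10 in every library. Other members were higher, such as Emx2 at 83.8 to 138 and Slc5a2 at 20.3 to 39.3 in the 4 libraries. Krt18, Epcam and Slc34a1 were not analysed here.

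Rtp3 was about 4.6 times as abundant in lv_Mettl3 as in lv_nc. Its gene (ENSRNOG00000037167) lies on the minus strand of chromosome 8 from 119260618 to 119265157, in the coordinates of the authors' file, whose genome build is not stated. The table describes it as protein coding with a transcript length of 1958 bases within a span of 4540 bases. The values are counts over the gene as a whole, so exons and isoforms cannot be told apart. No other gene of the table overlaps these coordinates.

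Reads assigned to Rtp3 numbered 218 in lv_nc replicate 1, 270 in lv_nc replicate 2, 1016 in lv_Mettl3 replicate 1 and 1027 in lv_Mettl3 replicate 2. Divided by the authors' size factors, these are normalized counts of 213 and 249 in lv_nc and 1077 and 1061 in lv_Mettl3. Both lv_Mettl3 libraries were high, both lv_nc libraries were low, and the groups did not overlap. The exact 95% Poisson intervals, which cover counting error only, ran from 186 to 243 and from 220 to 281 in lv_nc, and from 1012 to 1146 and from 997 to 1128 in lv_Mettl3. Within each group the intervals overlapped.

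**Figure D1:**
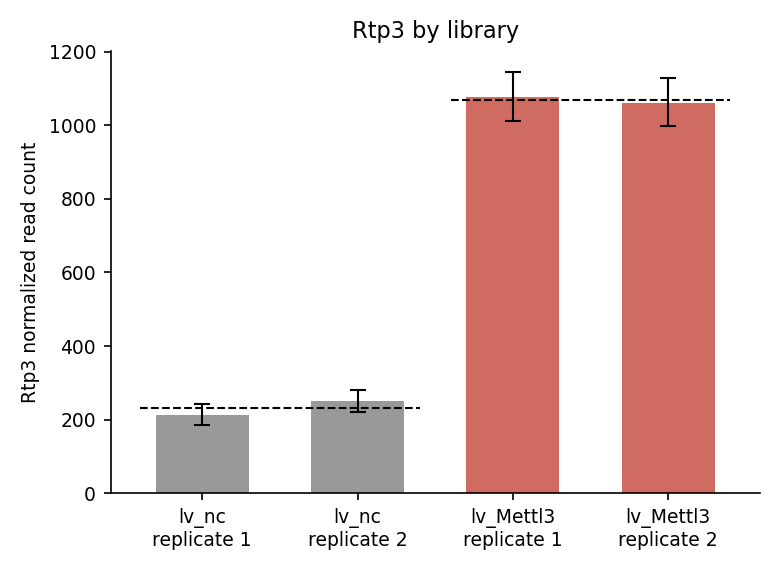
Normalized read count of Rtp3 (vertical axis) in each of the 4 libraries (bars), with exact 95% Poisson intervals as error bars and the mean of each group as a dashed line. The lv_nc bars stand at 213 and 249 and the lv_Mettl3 bars at 1077 and 1061, with a gap of 812 between the groups.

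The group means were 231 ± 25.6 in lv_nc and 1069 ± 11.2 in lv_Mettl3 (SD, n = 2 libraries each), a ratio of 4.63. On the log2(normalized count + 1) scale the difference was 2.21, against a pooled SD between replicates of 0.11. Any lv_Mettl3 library exceeded any lv_nc library by 4.26 to 5.06 times. Within a group the higher replicate was 1.17 times the lower in lv_nc and 1.01 times in lv_Mettl3. The authors' deposited table gives a log2 fold change of 2.21 for Rtp3. Leaving out 1 library at a time gave log2 differences from 2.10 to 2.32, the lowest without lv_nc replicate 1 and the highest without lv_nc replicate 2.

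The agreement of the replicates was ordinary in one group and close in the other. Among 10051 genes with a mean normalized count of at least 100, 53.5% had a smaller log2 difference between the lv_nc replicates than Rtp3, and 11.5% had a smaller one between the lv_Mettl3 replicates. Expression per length placed Rtp3 in the middle of the genes in lv_nc and in the upper part in lv_Mettl3. The length-scaled level (normalized count divided by gene length, expressed in the manner of TPM) was 13.7 and 16.6 in lv_nc, above 48.6% and 51.2% of the 16391 genes tested. It was 68.4 and 66.7 in lv_Mettl3, above 81.7% and 81.3% of them. In rank order this is a move from places 8420 and 8007 to places 2992 and 3058.

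Rtp3 ranked 80th by log2 difference among all 16391 genes tested, where many of the genes above it had few reads. Among the 11022 genes with a mean of at least 50, 21 had a larger log2 difference in the same direction. In 16 of the 21, replicates of a group differed by more than 1.5-fold, as in Hprt1, a purine salvage enzyme gene, at 5.86 and 2.77 in lv_nc and 271 and 45.5 in lv_Mettl3. Only 1 of the 21, the chemokine gene Cxcl10, had replicates within 1.17-fold of each other in both groups, the ratio seen for Rtp3 in lv_nc. Cck, with ratios of 1.17 and 1.05, lay just outside that limit. The limit of 1.17 comes from Rtp3 itself, so this describes where the gene sits and is not a test.

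**Figure D2:**
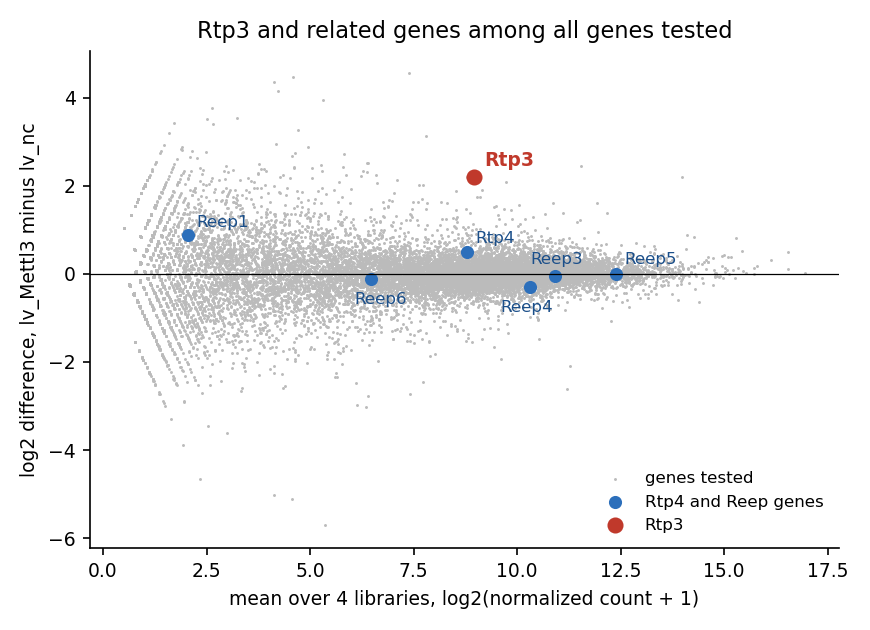
Mean of log2(normalized count + 1) over the 4 libraries (horizontal axis) against the log2 difference between lv_Mettl3 and lv_nc (vertical axis) for the 16391 genes tested (grey points), with Rtp3 in red and Rtp4 and the tested Reep genes in blue. Rtp3 stands at a difference of 2.21, while the blue points lie between -0.29 and 0.89.

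The relatives of Rtp3 were compared next, in the limma fit over all genes. Of 12 receptor transporter and related genes, 7 were in the table and 6 were tested. Limma called 0 of the 6, with 1 at an unadjusted p under 0.05. The share of all genes under that unadjusted threshold was not analysed here. Such counts, here and below, thus have no background beside them. DESeq2 called 0 of the 5 it tested, and edgeR also called 0. Over all genes limma called 0.0183%, edgeR 0.0381% and DESeq2 2.52%, so 0 calls among so few genes is near the background. The median log2 difference of the 6 was -0.03, and that of all genes tested was 0.01. Rtp1, Rtp2, Rtp5, Zar1 and Zar1l were not analysed here.

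Rtp4, the other receptor transporter in the table, had normalized counts of 268 and 508 in lv_nc and 510 and 538 in lv_Mettl3. The groups did not overlap, but lv_nc replicate 2 lay just below lv_Mettl3 replicate 1 and far above its own replicate. The means were 388 ± 170 and 524 ± 20.1 (n = 2 each), a log2 difference of 0.51 (SE 0.31, limma adjusted p = 0.575). Rtp4 therefore did not pass the test.

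The balance of the 2 receptor transporters turned over between the groups. Per length, Rtp3 was at 0.783 and 0.483 of the Rtp4 level in the lv_nc replicates, and at 2.08 and 1.94 times that level in the lv_Mettl3 replicates. Rtp3 thus made up 43.9% and 32.6% of the sum of both genes in lv_nc, and 67.5% and 66.0% in lv_Mettl3. The lv_nc replicates differed in this share mainly through Rtp4, whose length-scaled level was 17.4 and 34.2 there. This share rests on the values that chose Rtp3 and is given without a test.

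Reep4, an endoplasmic reticulum shaping protein that acts in mitosis, had 1403 ± 137 in lv_nc and 1145 ± 49.6 in lv_Mettl3 (normalized counts, log2 difference -0.29, SE 0.11, limma adjusted p = 0.476). Reep5, which bends tubular endoplasmic reticulum membrane, had 5356 ± 247 and 5329 ± 483 (log2 difference -0.01, SE 0.10, limma adjusted p = 0.979). Reep3 had 1969 ± 136 and 1899 ± 51.4, and Reep6 had 91.3 ± 13.1 and 84.6 ± 19.2, with limma adjusted p of 0.861 and 0.89. Reep1 was near the detection limit with 4, 1, 9 and 2 reads, and Reep2 had reads in lv_Mettl3 replicate 1 alone, 3 in number. Reep3, Reep4, Reep5 and Reep6 passed no test with any of the 3 tools. Reep1 had an adjusted p from limma only (0.708), and Reep2 had none.

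In the order of length-scaled levels Rtp3 was the fifth of the 8 genes in lv_nc and the third in lv_Mettl3. In lv_nc the order was Reep5 (236 ± 16.6), Reep4 (94.2 ± 11.5), Reep3 (51.8 ± 4.83), Rtp4 (25.8 ± 11.9), Rtp3 (15.1 ± 2.04) and Reep6 (5.50 ± 0.923), followed by Reep1 and Reep2. There Rtp3 and Rtp4 differed by less than the SD of Rtp4. In lv_Mettl3 Rtp3 (67.6 ± 1.20) stood below Reep4 (74.3 ± 2.68) and above Reep3 (48.3 ± 1.66) and Rtp4 (33.6 ± 1.05), with no overlap of libraries between these neighbours.

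The receptors that Rtp3 is known to serve were hardly present. Of 61 taste receptor and transduction genes, 17 were in the table, and the table held 1 gene named Tas2r, Tas2r108, which had reads in lv_Mettl3 replicate 2 only (normalized count 4.13). Gnat3, the taste G protein alpha subunit, was at 1.95 and 0.923 in lv_nc and 0 in both lv_Mettl3 libraries. Trpm5, the taste cell cation channel, was at 0 and 1.85 in lv_nc and at 0 and 2.07 in lv_Mettl3. These are 0 to 4 reads a library, too few to compare groups. Of the 17 genes 9 had a mean under 10, but other members of the list were abundant. Gnb1 was at 6311 and 6600 in lv_nc and 6340 and 6609 in lv_Mettl3 (limma adjusted p = 0.988). Itpr3 was at 2356 and 3577 in lv_nc and 2372 and 2726 in lv_Mettl3 (limma adjusted p = 0.752). Of the 14 genes that limma tested it called 0, with 0 at an unadjusted p under 0.05. DESeq2 called 0 of the 8 it tested, and edgeR called 0. Over all genes limma called 0.0183%, DESeq2 2.52% and edgeR 0.0381%, so 0 calls among so few genes is near the background.

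Genes listed for receptor export, the step that Rtp3 assists, were compared as well. Of 30 accessory and export genes, 28 were tested. Their log2 differences ran from -0.57 to 0.56 with a median of 0.07, and 22 of the 28 were above 0. Limma called 0 (0.0183% over all genes), and edgeR called 0 (0.0381%). At an unadjusted limma p under 0.05 stood 4, a count with no background share. DESeq2 called 1 of the 27 it tested, against a background of 1.45% called higher. That gene was Hspa5, the main Hsp70 chaperone of the endoplasmic reticulum, which rose by 0.51 on the log2 scale (SE 0.13, DESeq2 adjusted p = 0.00712). Its means were 36703 ± 1215 and 52444 ± 1400. The limma adjusted p of Hspa5 was 0.378 and its edgeR adjusted p was 0.146, so neither called it. Ramp2, a single-pass partner that carries the calcitonin receptor-like receptor to the surface, had 655 ± 15.4 and 967 ± 46.1 (log2 difference 0.56, SE 0.10, limma adjusted p = 0.372, DESeq2 adjusted p = 0.0683).

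Other genes enriched in liver were listed beside Rtp3. Of 33 such genes, 20 were in the table, 14 of those had a mean under 10, and 16 were tested. The median log2 difference was -0.37 and 4 of the 16 were above 0. Limma called 0 of the 16, DESeq2 0 of the 6 it tested and edgeR 0, near the backgrounds of 0.0183%, 2.52% and 0.0381%. At an unadjusted limma p under 0.05 stood 1 gene, again with no background share. Alb, the albumin gene, had 2 reads in lv_nc replicate 2 and 0 in the other libraries. Not all members were that low. Tf, the member of highest mean, was at 1473 and 1312 in lv_nc and 1442 and 1365 in lv_Mettl3 (limma adjusted p = 0.972). Cebpa was at 308 and 352 in lv_nc and 321 and 301 in lv_Mettl3 (limma adjusted p = 0.853). The gene at the unadjusted p was Foxa2, a forkhead factor of liver and other endoderm, at 717 and 448 in lv_nc and 943 and 1014 in lv_Mettl3 (log2 difference 0.79, SE 0.24, limma adjusted p = 0.452, DESeq2 adjusted p = 0.0531).

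Interferon response genes, among which Rtp4 is counted, were compared because a receptor transporter gene belongs to them. The list, which holds Cxcl10, Ifit3 and Herc6, was fixed with earlier results of these data known, so its counts are no independent test. Of 63 tested limma called 1, Cxcl10 (0.0183% over all genes), and edgeR called 1 (0.0381%). DESeq2 called 16 higher and 3 lower of 60, or more than its background of 1.45% higher and 1.07% lower. The median log2 difference was 0.21, with 38 of the 63 above 0. In order of limma p, the genes after Cxcl10, Ifit3 and Herc6, whose values follow, were Ifi27l2b, Samd9 and Gbp5, which DESeq2 called and limma did not. By DESeq2 p, Oasl, Isg15, Ifit1 and Ly6e came before Gbp5. Ifi27l2b, of the interferon-inducible Ifi27 family, rose from 422 ± 70.4 to 1219 ± 135 (DESeq2 adjusted p = 4.51e-11). Samd9, an antiviral restriction factor, rose from 613 ± 0.404 to 1462 ± 228 (DESeq2 adjusted p = 9.81e-09), and Gbp5, a guanylate-binding protein gene, from 129 ± 28.4 to 396 ± 36.0 (DESeq2 adjusted p = 2.17e-06). Their limma adjusted p-values were 0.165, 0.165 and 0.272. Their limma log2 differences were 1.53, 1.24 and 1.62, below the 2.21 of Rtp3, and Rtp4 was not among the calls. The 3 genes that DESeq2 called lower were Ly6e, a membrane-anchored Ly6 family protein gene, at a limma log2 difference of -1.07 (DESeq2 adjusted p = 1.18e-06), the tetherin gene Bst2 at -0.70 (DESeq2 adjusted p = 0.0103) and the secreted glycoprotein gene Lgals3bp at -0.60 (DESeq2 adjusted p = 0.0241). Without any 1 of the 4 libraries limma called 0 genes of the list. The DESeq2 count in this list changed with each library left out, and so did its count over all genes. Such fits leave 1 library in a group, and the background shares above do not apply to them.

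Of 19 markers of other cell types, 13 were in the table and tested, with a median log2 difference of -0.19 and 5 of them above 0. DESeq2 called 4 lower of the 6 it tested, the fibroblast and smooth muscle genes Col1a1, Col1a2, Col3a1 and Acta2, against its background of 1.07% lower. Limma and edgeR called 0 (0.0183% and 0.0381% over all genes). The count at an unadjusted limma p under 0.05 was 4, with no background share. The summed normalized counts of the 13 were 9870 and 16216 in lv_nc against 3220 and 2782 in lv_Mettl3. Most of these sums came from Col1a1 (3914 and 8706 against 1033 and 876) and Col3a1 (4115 and 6315 against 1386 and 1017), both genes of fibrillar collagen. Des, the desmin gene of muscle, stood at 171 and 246 against 192 and 289. The endothelial genes Cdh5 and Tek, the T cell gene Cd3e and the macrophage genes Csf1r and Adgre1 stayed under 20 in every library, while Cd68, another macrophage gene, was at 22.3 to 43.4. The part of these markers in the level of Rtp3 was not tested. In bulk RNA, a change in the share of cells that express Rtp3 and a change per cell cannot be told apart.

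The 10 nearest genes of the table on each side of Rtp3 on chromosome 8 span 3302 kb in the deposited coordinates. The farthest, Pdcd6ip, lies 2651027 bases from Rtp3, so the set reaches well beyond its immediate surroundings. Of these genes 19 were tested, with log2 differences from -0.49 to 2.08 and a median of 0.10, and 13 were above 0. Limma called 0, with 2 at an unadjusted p under 0.05, a count with no background share. DESeq2 called 0 of the 13 it tested, and edgeR called 0. Over all genes limma called 0.0183%, DESeq2 2.52% and edgeR 0.0381%, so 0 calls among so few genes is near the background. In the 14 neighbours with a mean of at least 10, the differences lay between -0.49 and 0.45.

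**Figure D3:**
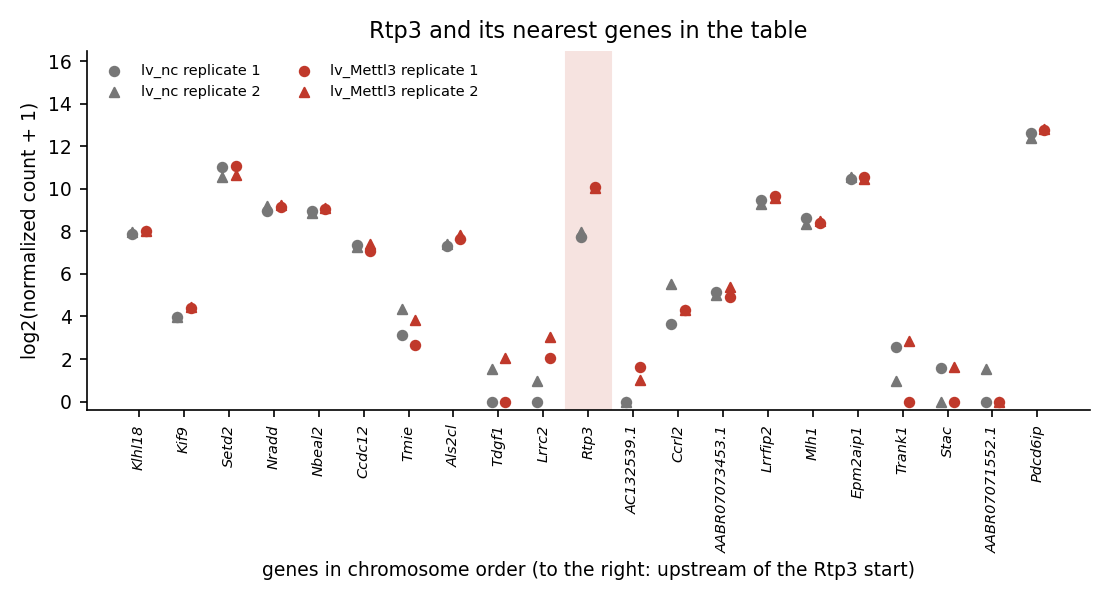
Log2(normalized count + 1) in each library (vertical axis, circles for replicate 1 and triangles for replicate 2, grey for lv_nc and red for lv_Mettl3) for Rtp3 (shaded) and the 10 nearest genes of the table on each side in chromosome order. Rtp3 shows separated groups at 213 and 249 against 1077 and 1061, while the neighbours with a mean of at least 10 differ by at most 0.49 on the log2 scale.

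Lrrc2, a leucine-rich repeat gene on the plus strand whose end lies 972 bases from the end of Rtp3, had the largest difference of the neighbours. It had 0 and 1 reads in lv_nc and 3 and 7 in lv_Mettl3 (normalized counts of 0, 0.923, 3.18 and 7.23, limma adjusted p = 0.455). Both genes run toward each other, whether counting used strand is not stated in the labels, and the part of reads from Rtp3 in those of Lrrc2 was not tested. Tdgf1, a gene of the EGF-CFC family, drew 0 and 2 reads in lv_nc against 0 and 3 in lv_Mettl3. Als2cl, a guanine nucleotide exchange factor gene beyond it, had 163 ± 6.24 and 210 ± 19.9 (log2 difference 0.37, SE 0.18, limma adjusted p = 0.514).

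On the other side, upstream of the Rtp3 start, AC132539.1 had 0 reads in both lv_nc libraries and 2 and 1 in lv_Mettl3. Ccrl2, an atypical chemokine receptor gene 59455 bases away, counted 11.7 and 45.2 in lv_nc against 19.1 and 18.6 in lv_Mettl3, so the lv_Mettl3 libraries fell between the lv_nc libraries (limma adjusted p = 0.892). AABR07073453.1 had 32.8 ± 1.98 and 35.5 ± 8.24 (limma adjusted p = 0.929). In the RefSeq gene table of build GRCr8, Lrrc2 is likewise the neighbour on one side, and the lactoferrin gene Ltf, not analysed here, lies on the other, past the pseudogene Elobl7.

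The genes whose pattern over the 4 libraries was most like that of Rtp3 lay on other chromosomes, apart from Cck. Likeness was the Euclidean distance between profiles of log2(normalized count + 1), each centred on its own mean, among 9796 other protein-coding genes with a mean of at least 50 and a regular symbol. The 8 nearest were Cxcl10 (distance 0.133), Ccl2 (0.169), Cck (0.252), Ifit3 (0.325), Herc6 (0.359), Tnfrsf19 (0.366), Slc51a (0.406) and Dusp4 (0.499). These distances are close to one another at the end of the list, where the next gene stood at 0.512. The genes were picked from the same 4 libraries and values as Rtp3, so their differences are a description too.

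Cxcl10, a chemokine gene induced by interferon and NF-kB, stood at 7129 and 7892 in the lv_nc libraries against 37138 and 32497 in the lv_Mettl3 libraries, a log2 difference of 2.21 beside the 2.21 of Rtp3. Ccl2, the monocyte chemokine gene, counted 372 and 453 in lv_nc against 1668 and 1814 in lv_Mettl3. Cck, the cholecystokinin gene, had 1176 and 1378 against 7186 and 6821 and a log2 difference of 2.46. Cck also lies on chromosome 8, 10855 kb from Rtp3, in the deposited coordinates. All 3 were more abundant than Rtp3 in read number and had separated groups.

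Ifit3, an antiviral gene, stood at 100.6 and 106.2 in lv_nc against 479 and 372 in lv_Mettl3. Herc6, a ligase gene of the ISG15 system, counted 246 and 347 in lv_nc against 1164 and 1053 in lv_Mettl3, close to Rtp3 in read number. Tnfrsf19, a member of the TNF receptor superfamily, was low, at 27.4 and 24.0 in lv_nc against 142 and 113 in lv_Mettl3. Slc51a, the alpha subunit of the organic solute transporter that exports bile acids, counted 68.4 and 68.3 in lv_nc against 245 and 249 in lv_Mettl3. Dusp4, a nuclear MAP kinase phosphatase gene, counted 26.4 and 21.2 in lv_nc against 85.9 and 99.2 in lv_Mettl3.

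**Figure D4:**
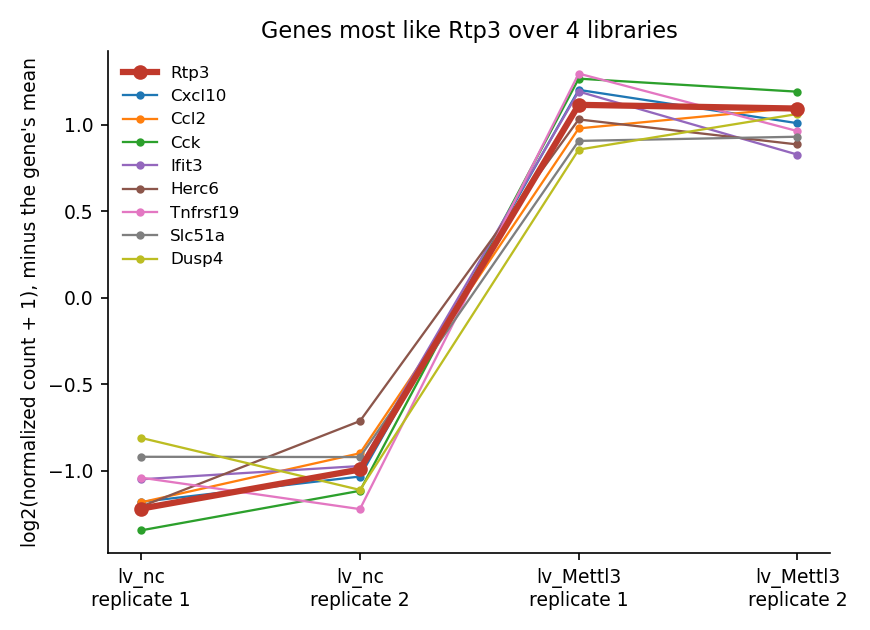
Log2(normalized count + 1) minus the mean of the gene (vertical axis) in the 4 libraries (horizontal axis) for Rtp3 (thick red line) and the 8 genes at the smallest distance from it. Every line is low in both lv_nc libraries and high in both lv_Mettl3 libraries, and Cxcl10, at a distance of 0.133, runs closest to Rtp3.

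The promoters of Rtp3 and of these genes were set side by side, since the genes had like profiles. The table of RefSeq windows on build GRCr8 held 6 of the 9 genes, namely Rtp3, Cxcl10, Ifit3, Herc6, Tnfrsf19 and Slc51a. The 250 bases before the listed start are shown for Rtp3, for Cxcl10 as the gene nearest to it, and for Ifit3 as an interferon-induced gene. They are chr8:119853096-119853345 on the minus strand, chr14:15988816-15989065 on the plus strand and chr1:241527076-241527325 on the plus strand. Capitals mark every match to the motifs named after them, on either strand.
Rtp3: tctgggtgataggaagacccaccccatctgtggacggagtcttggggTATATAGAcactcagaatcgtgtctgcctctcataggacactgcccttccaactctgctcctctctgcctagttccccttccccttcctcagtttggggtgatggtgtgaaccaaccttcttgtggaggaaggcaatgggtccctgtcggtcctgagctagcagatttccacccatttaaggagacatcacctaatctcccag
Cxcl10: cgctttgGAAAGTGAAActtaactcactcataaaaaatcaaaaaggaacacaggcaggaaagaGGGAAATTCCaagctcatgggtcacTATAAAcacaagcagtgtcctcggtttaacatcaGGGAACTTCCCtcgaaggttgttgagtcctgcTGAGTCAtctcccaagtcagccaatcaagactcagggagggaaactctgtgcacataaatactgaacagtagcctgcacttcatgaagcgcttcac
Ifit3: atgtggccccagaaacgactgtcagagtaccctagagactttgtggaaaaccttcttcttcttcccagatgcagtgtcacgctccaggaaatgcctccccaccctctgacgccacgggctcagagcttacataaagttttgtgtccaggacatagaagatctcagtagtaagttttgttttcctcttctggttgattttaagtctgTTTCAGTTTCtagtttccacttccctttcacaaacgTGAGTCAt

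The motifs searched on both strands were a TATA type (TATANA), an NF-kB type (GGGNNNNNCC), an interferon-stimulated response element type (GAAANNGAAA), a STAT-binding GAS type (TTCNNNGAA) and an AP-1 type (TGANTCA). The window of Rtp3 held only the TATA type, in overlapping matches between 203 and 196 bases before the start. Of 33469 windows of the same length, 24.2% held that motif. The window of Cxcl10 held 1 match of the interferon type, NF-kB types at 2 places, 1 AP-1 type and 1 TATA type, and that of Ifit3 held 1 interferon type and 1 AP-1 type.

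Among the 5 like genes with a window, 2 each held the interferon type, the NF-kB type, the AP-1 type and the TATA type, and 0 held the GAS type. Over all windows the shares were 3.41%, 42.3%, 6.34%, 24.2% and 7.67% in that order. The Rtp3 window had 53.2% G and C and 3 CG pairs, against medians of 51.2% and 5 over all windows. RefSeq lists 2 transcripts of Rtp3 and the table gives 1 window, and the start used in NRK-52E was not analysed here. These matches describe letters in the reference sequence and say nothing of binding.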

How the data were processed

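RNA from 4 NRK-52E libraries was sequenced. Per the submitters' processing notes, CASAVA 1.4 and HISAT2 were used. The counter, genome build, annotation and use of strand are not stated in the labels. The deposited library columns hold a signal, gene counts that the authors scaled with 1 size factor for each library. Within 0.001 reads, 100% of values were whole multiples of the smallest positive value of their library, and whole reads were recovered from these steps. The deposited log2 fold change is the authors' own, per the file headers, and their deposited p-values were not used. Gene lengths are as deposited by the authors.

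Rtp3, the 7 gene lists and the rules were chosen with earlier results of these data known. The test was limma 3.58.1 (trend) on log2(value + 1) for the 16391 genes that reached a value of 1 in 2 or more libraries, and p-values were adjusted over all of them (Benjamini-Hochberg, threshold 0.05). This understates changes of low genes. DESeq2 1.42.0 and edgeR 4.0.16 (quasi-likelihood) were run on recovered reads as alternatives. An adjusted p that DESeq2 gives as missing was left out, which left 12601 genes for DESeq2, while edgeR tested 13113. Scripts were tested on simulated counts. Named genes were the relatives of Rtp3, up to 6 called genes per list by smallest p and the 8 most like genes. The 3 nearest neighbours on each side were given with values (all others in the plot by position). Up to 3 members of highest mean per list were planned too, but not all of these are given. Other genes with values, including Hprt1, Ramp2, Gnat3, Trpm5, Alb, Foxa2 and the marker genes, were chosen after their values were seen. Software was Python 3.11.15, R 4.3.3 and matplotlib 3.10.9.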

Additional observations from a re-analysis of the deposited data

How the results depend on the processing

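The log2 difference of Rtp3 was between 2.10 and 2.32 in the 12 alternatives, those ends being reached when 1 lv_nc library was left out. With 2 libraries a group, a fit without 1 of them cannot move it by more than the SD between replicates, so this range is no test of stability. Library size, TMM and upper quartile scaling gave 2.17, 2.22 and 2.19. The titles give both groups replicate numbers 1 and 2, but nothing says that a number marks a shared culture or day. Deviations of same-numbered libraries from their group means correlated at 0.325 over 10051 genes. With a replicate block the difference of Rtp3 was 2.21 and limma again called 3 genes, while its interferon response count went from 1 to 0.

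The limma count of 3 genes was 0 with a pseudocount of 0.1, 0 in each fit without 1 library, 5 with at least 1 CPM in all 4 libraries, 24 with robust empirical Bayes, 318 with DESeq2 and 5 with edgeR. The interferon response count of 1 was 0 with library size scaling, 0 with a pseudocount of 0.1, 0 in each fit without 1 library, 4 with robust empirical Bayes and 19 with DESeq2. The receptor accessory and export count of 0 was 1 with DESeq2. Leaving out a library, chosen as an alternative after seeing the data, moved the DESeq2 count of 318 to between 56 (without lv_Mettl3 replicate 1; 61 without lv_Mettl3 replicate 2) and 1547 (without lv_nc replicate 1), and its interferon response count of 19 to between 7 and 25. A fit without 1 library assumes that the lone library of its group varies like the other group. Some of these settings also remove libraries or genes, and the cause of the shifts was not tested. Counts of 0 for the relatives of Rtp3, taste genes, liver-enriched genes and neighbours stayed 0 in every alternative run. In the settings where limma called 0 genes in the whole table, these counts could only be 0. A neighbour set cut to 5 genes on each side is part of the full set, so its count was fixed too. This is therefore no measure of stability. With Pearson correlation in place of distance, 1 of the 8 like genes (Cck) was kept, since correlation ignores size.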

Other observations

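Tas1r2, a subunit of the sweet taste receptor, had normalized counts of 852 and 967 in lv_nc and 968 and 990 in lv_Mettl3 (limma adjusted p = 0.72), far above the other taste receptor genes. Its deposited gene model spans 93.1 kb, while RefSeq gives the gene 16.1 kb on build GRCr8. The part of reads from other genes of the wider span was not tested. Tas1r1, a subunit of the umami receptor, counted 26.4 and 27.7 in lv_nc against 30.7 and 37.2 in lv_Mettl3.

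Ranked by Pearson correlation over the 4 libraries instead of distance, Cck stood first at 0.9999 and was followed by genes with small differences between groups, such as Hyou1, an endoplasmic reticulum chaperone gene (log2 difference 0.64), and Atf7, a transcription factor gene (log2 difference 0.13). In all, 87 of the 9796 genes compared had a correlation with Rtp3 above 0.99. With 4 libraries such values describe the order and spacing of points and carry no p.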
